A study of Mus musculus with 13 samples.

Results

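Lymphocyte lineage transcription factors are described here across 6 leukocyte populations sorted from mouse spleen. The 10 genes listed were Pax5, Ebf1, Pou2af1, Tbx21, Eomes, Gata3, Tcf7, Lef1, Bach2 and Ets1, and a probe set was taken only where the annotation gave it to 1 of these symbols alone. By that rule 9 of the 10 were measured, through 21 of the 45101 probe sets of the array, and each gene was represented by its probe set with the highest mean over the arrays. Tcf7 had no probe set under the annotation used and was not analysed here. All 9 were among the 9380 genes tested, those whose signal reached 50 on every array of some population.

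The groups were B cells (3 arrays), NK cells (2), CD8 T cells (2), plasmacytoid DCs (pDCs, 2), CD8α conventional DCs (CD8α cDCs, 2) and CD11b conventional DCs (CD11b cDCs, 2). All came from untreated wild-type C57BL/6 mice, and no group carried a transgene or a deletion. Spleens were pooled from 10 to 15 mice per DC array and 6 to 10 mice per NK cell array. B cell replicates 1, 2 and 3 came from 3, 2 and 1 mice, and every CD8 T cell array from a single mouse. NK cells had been sorted as NK1.1+TCRβ-. B cell replicates 2 and 3 are labelled follicular, which replicate 1 is not. Ages, where labelled, were 6 weeks for B cell replicates 2 and 3 and 6 to 8 weeks for the CD8 T cells and CD8α cDC replicate 1.

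Lineage transcription factors bind short DNA motifs and switch the genes of a cell type on or off. Ebf1 and Pax5 act in sequence to establish and keep B cell identity, with Pou2af1 as a coactivator of octamer-binding factors at immunoglobulin genes. The T-box factors Tbx21 (T-bet) and Eomes drive the cytotoxic programme of NK and CD8 T cells, Gata3 and the HMG-box factors Tcf7 and Lef1 serve T cell development, and Bach2 and Ets1 restrain terminal differentiation of lymphocytes.

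The values are MAS5 signals, 1 per probe set and array, which the authors had scaled to a target intensity of 100 per array. Signals below 20 were set to 20 before log2 transformation, so a difference against a population below this floor is a lower bound. Differences come from 1 limma model of all 13 arrays with 7 residual degrees of freedom, p-values are two-sided and adjusted over all 9380 genes by the Benjamini-Hochberg method, and a gene was called at an adjusted p below 0.05. With 2 or 3 arrays per population their number limits the precision, and the p-values measure the spread between these samples. In sorted bulk populations, fewer cells that hold a transcript and less of it per cell cannot be told apart.

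The populations carried their own markers. The summed signal of the 5 measured B cell markers was 15350 to 25250 on B cell arrays and at most 490.7 on any other. That of 8 T cell markers was 12250 to 14230 on CD8 T cell arrays. It was 2149 to 2169 on pDC arrays, 3003 to 3162 on CD8α cDC arrays and at most 336 on the remaining ones. Of the T cell markers, Cd8a gave 3087 and 2916 in CD8α cDCs. In pDCs it gave 781 and 1047, and Cd8b1 gave 1295 and 1088. Cd3d, Cd3e and Cd3g gave at most 18.0 in both. The sum of the 5 measured NK cell markers was 39790 to 42770 on NK cell arrays and 4494 to 6402 on CD8 T cell arrays. It was 2600 to 2793 on pDC arrays, 2313 to 2515 on CD11b cDC arrays and at most 309 on the remaining ones. B cell replicate 1 stood apart, correlating at 0.934 and 0.935 with the other B cell arrays, which correlated at 0.979 with each other. It had a recorded RNA amount of 100 ng, against 50 ng for the other B cell arrays, and was on a different chip lot from them. It also had the highest signal of the plasma cell gene Jchain (7866, against 92.1 and 332 in B cell replicates 2 and 3) and of Cr2 (2916, against 271 and 215), whereas the plasma cell gene Sdc1 was lowest there (82.8, against 182 and 241) and Prdm1 was between the others (39.6, against 36.0 and 47.3). The summed signal of 5 granulocyte markers was 75.3 to 1271 on B cell arrays and at most 231 on any other, with S100a8 at 438 in replicate 1, against 27.2 and 127.5 in replicates 2 and 3. The part of such cells, of RNA amount and of chip lot in the B cell values was not tested. The NK cell arrays had a GAPDH 3′ to 5′ signal ratio of 23.9 and 11.2, against 3.46 to 6.30 on the other arrays. This ratio is read as a sign of RNA quality. Xist and Y-linked transcripts went against the labelled sex on 3 arrays (CD8 T cell replicates 1 and 2, labelled female, and B cell replicate 2, labelled male). By these transcripts 6 of the 7 lymphocyte arrays were male and the 6 DC arrays female. No scan day held both lymphocyte and DC arrays, and the CD8 T cell arrays were scanned on a day of their own, so scan day cannot be told apart from population in those comparisons.

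Promoter windows of 300 bases were read from the RefSeq promoter table (GRCm38.p6) for the measured genes other than Ets1, which it does not list, and for Tcf7. The 4 windows shown belong to Eomes and Gata3, whose signals followed each other most closely, and to Ebf1 and Lef1, the only measured members with a match to any motif searched. Capitals mark the match.

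Eomes, chr9:118477939-118478238, plus strand: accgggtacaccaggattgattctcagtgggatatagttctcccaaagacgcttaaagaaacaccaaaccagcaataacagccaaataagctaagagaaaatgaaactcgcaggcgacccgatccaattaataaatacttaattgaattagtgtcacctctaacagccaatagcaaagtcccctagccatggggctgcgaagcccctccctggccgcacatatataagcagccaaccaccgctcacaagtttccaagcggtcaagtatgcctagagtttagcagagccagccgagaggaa
Gata3, chr2:9878551-9878850, minus strand: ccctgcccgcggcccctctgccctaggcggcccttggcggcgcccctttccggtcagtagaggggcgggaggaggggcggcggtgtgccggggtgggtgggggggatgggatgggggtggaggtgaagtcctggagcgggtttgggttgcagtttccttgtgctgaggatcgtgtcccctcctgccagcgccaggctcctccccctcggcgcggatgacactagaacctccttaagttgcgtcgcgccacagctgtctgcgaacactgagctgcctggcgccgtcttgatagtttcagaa
Ebf1, first listed start, chr11:44617850-44618149, plus strand: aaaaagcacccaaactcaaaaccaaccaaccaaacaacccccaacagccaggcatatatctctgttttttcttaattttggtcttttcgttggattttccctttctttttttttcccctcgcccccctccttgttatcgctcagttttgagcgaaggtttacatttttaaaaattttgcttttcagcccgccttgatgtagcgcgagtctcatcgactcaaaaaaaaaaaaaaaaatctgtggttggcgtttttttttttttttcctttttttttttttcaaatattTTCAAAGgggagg
Lef1, last listed start, chr3:131156044-131156343, plus strand: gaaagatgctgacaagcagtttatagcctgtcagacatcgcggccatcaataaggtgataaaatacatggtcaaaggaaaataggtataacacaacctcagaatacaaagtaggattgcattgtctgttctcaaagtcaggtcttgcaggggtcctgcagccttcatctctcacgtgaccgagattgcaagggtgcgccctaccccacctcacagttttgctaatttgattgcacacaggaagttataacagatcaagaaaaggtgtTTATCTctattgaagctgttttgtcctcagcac

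The letters searched on both strands were the octamer ATGCAAAT, the EBF motif TCCCNNGGG, the GATA motif AGATAA, the TCF/LEF motifs CTTTGAA and CTTTGAT, the T-box motif AGGTGTGA and the ETS motif CCGGAAGT. Ebf1 held CTTTGAA on the minus strand, 37 bases after the start, and Lef1 held AGATAA on the minus strand, 17 bases after its last listed start. Of all 32851 promoter windows, 5.14% held CTTTGAA and 11.2% held AGATAA. The second window of Tcf7 held the ETS motif, which 3.89% of all windows did. The octamer was found in 1.74% of all windows, the EBF motif in 6.56%, CTTTGAT in 3.73% and the T-box motif in 1.28%, and none of these was in a window of a listed gene. These are matches of letters in these windows and no binding was measured.

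All 9 factors differed among the 6 populations by limma's F-test (largest adjusted p = 5.43e-06, for Pax5), as did 82.8% of all genes tested. Each had its highest mean in a lymphocyte population and was higher there than in each of the other 5. B cells were highest for Pax5, Ebf1, Pou2af1 and Bach2, NK cells for Tbx21, Eomes and Gata3, and CD8 T cells for Lef1 and Ets1. Among all genes tested, 2.76% were higher in B cells than in each other population, 5.78% had this pattern in NK cells and 4.18% had it in CD8 T cells. No factor was higher in 1 DC population than in each other population, a pattern that 11.6% of all genes had.

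**Figure D1:**
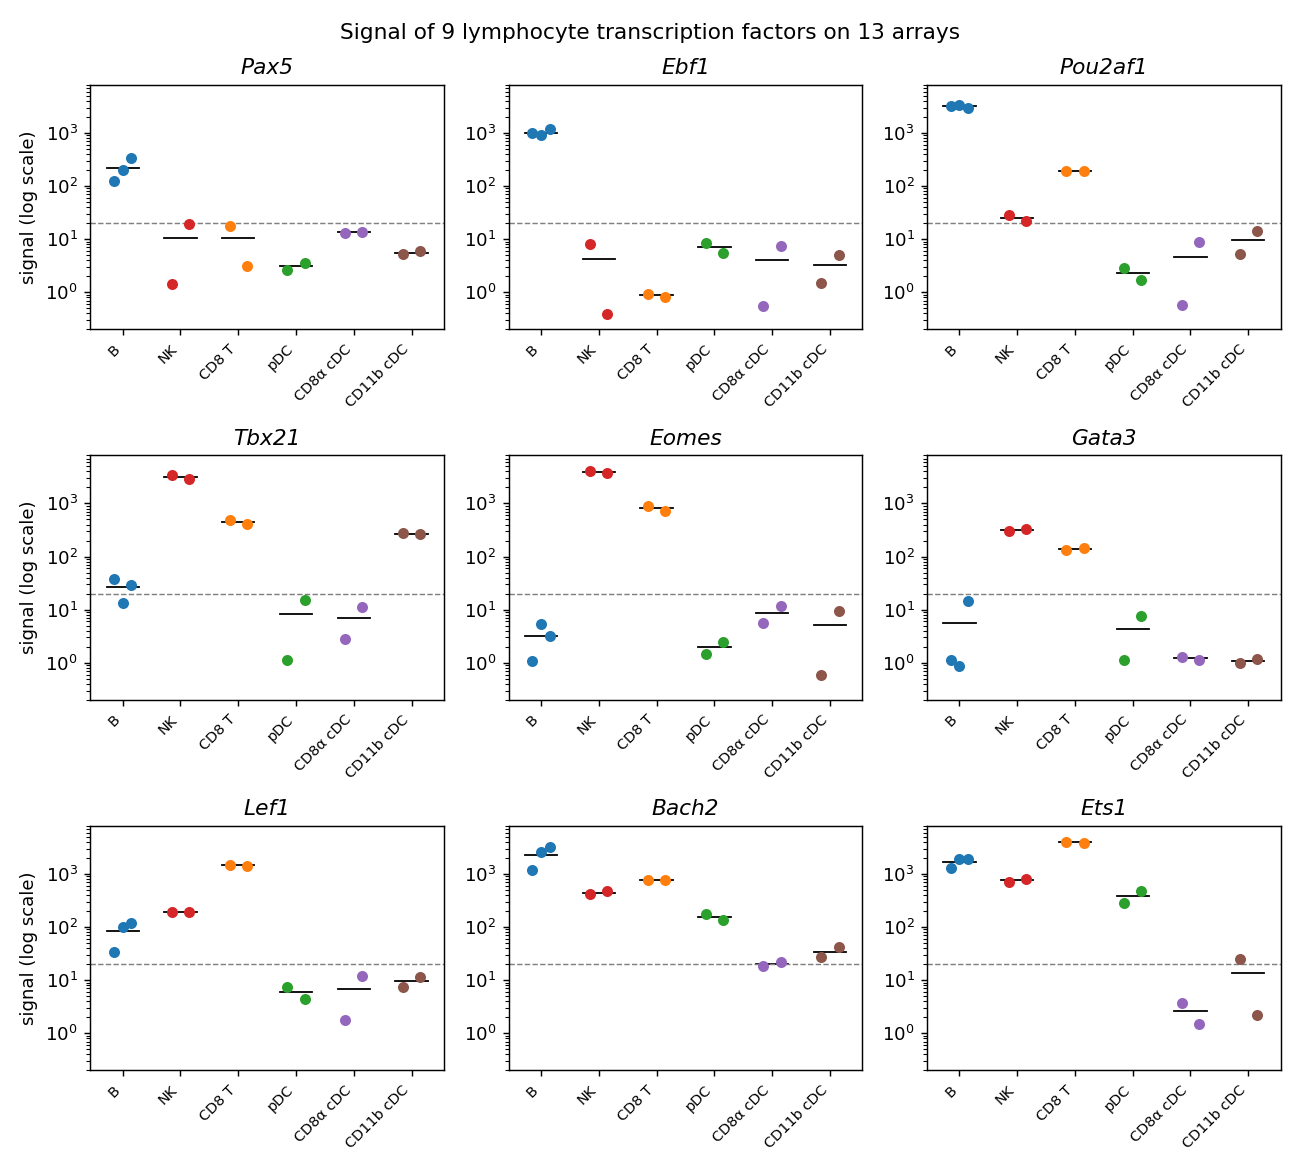
Signal of each factor (log axis) on each of the 13 arrays by population, with a bar at the population mean and a dashed line at the floor of 20. Pax5 and Ebf1 lie above the floor in B cells alone, Tbx21 also reached 264 and 273 in CD11b cDCs, and Bach2 and Ets1 lie above it in pDCs.

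Ebf1, which specifies early B cells, had signals of 995, 895 and 1160.2 in B cells and of 8.63 or less on each of the other 10 arrays. Its log2 difference of B cells to NK cells and CD8 T cells together was 5.66 (SE 0.12, adjusted p = 2.13e-10 from limma). All 5 of its probe sets were highest on a B cell array, and 4 of them reached a signal of 50. The remaining one (1457441_at) did not pass the filter, with 41.8, 2.65 and 23.9 in B cells, where it overlapped other populations.

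Pax5, which keeps B cells committed, had signals of 125, 202 and 333 in B cells, the lowest in replicate 1, and of at most 19.3 elsewhere. The B cell arrays did not overlap any other array, and the log2 difference to NK and CD8 T cells was 3.34 (SE 0.26, adjusted p = 1.87e-06). On its other probe set replicate 1 was highest rather than lowest (86.0, 71.3 and 62.3 in B cell replicates 1 to 3), so the order of the B cell arrays for Pax5 depended on the probe set. Outside B cells every Pax5 and Ebf1 signal on the probe sets used lay below the floor, and no order can be given there.

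Pou2af1, the octamer coactivator, had signals of 3216, 3403 and 3008 in B cells, 28.6 and 22.3 in NK cells, 191 on both CD8 T cell arrays and at most 14.2 in DCs. The order of B cells, CD8 T cells and NK cells held at each step (log2 differences 4.07 and 2.92, adjusted p = 6.34e-09 and 3.6e-07), whereas NK cells and pDCs were not called different (0.34, adjusted p = 0.116). That last step was called without the floor (3.01, adjusted p = 0.00751), without NK cell replicate 2 (0.52, adjusted p = 0.0233) and when other genes were read from their second probe set (0.34, adjusted p = 0.0484). The CD8 T cell mean was 5.95% of the B cell mean. On the same arrays Ebf1 stood at 0.0862% of its B cell mean, and the B cell markers Cd79a, Ms4a1, Fcer2a, Cr2 and Cd79b at 0.711 to 1.47%. Of the 5 measured B cell markers, 1 had a mean signal of at least 50 in CD8 T cells (Cd79b), and Ms4a1 reached 65.4 on 1 of the arrays. Pax5, below the floor on both arrays, stood at 4.81%, and the part of other cells in the Pou2af1 level was not tested.

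Genes that these factors are known to activate were written as a list of 16, of which 15 were tested. This and the later gene lists were written with earlier results of these data known. The 15 include the 5 measured B cell markers, so their count describes the cells and does not test the factors. All 15 were higher in B cells than in NK and CD8 T cells, with a median log2 difference of 5.81, against 17.7% of all genes and a median of 0. Examples are Cd79b (7.16) and Cd79a (6.64), which encode the signalling chains of the B cell receptor, Ms4a1 (7.49), which encodes CD20, and Spib (6.80), an Ets-family factor. Of 8 genes that Pax5 is known to repress, 5 were lower in B cells, as were 20.1% of all genes. They included Cd28 (-4.49), a T cell costimulatory receptor, the chemokine receptor Ccr2 (-4.24) and Notch1 (-2.56). Flt3 was higher (0.71), at low signals of 16.3, 36.9 and 47.85 in B cells and at most 17.5 in NK and CD8 T cells.

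Tbx21, the T-box factor of type 1 immunity, had signals of 3357 and 2884 in NK cells, then 480 and 418 in CD8 T cells and 273 and 264 in CD11b cDCs. In B cells it gave 37.8, 13.3 and 29.4, and in pDCs and CD8α cDCs at most 15.3. NK cells exceeded CD8 T cells by 2.80 (log2, SE 0.25, adjusted p = 1.31e-05) and CD11b cDCs exceeded B cells by 3.26 (adjusted p = 9.22e-07), while B cells and pDCs were not called different (0.49, adjusted p = 0.111). CD8 T cells exceeded CD11b cDCs by 0.74 (adjusted p = 0.0314). Dropping any 1 of these 4 arrays removed that call (adjusted p = 0.0656 to 0.151).

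Eomes, the T-box factor paired with Tbx21 in NK and memory CD8 T cells, gave 4086 and 3742 on the NK cell arrays and 913 and 733 on the CD8 T cell arrays. On the other 9 arrays it stayed at or below 11.7. The NK cell arrays were above both CD8 T cell arrays, with a log2 difference of 2.26 (SE 0.16, adjusted p = 1.69e-06). Its other probe set gave 2.00 (adjusted p = 9.67e-06 in a fit over probe sets).

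Gata3, a zinc finger factor of T cell development, had signals of 297 and 331 in NK cells and of 134 and 145 in CD8 T cells, with at most 14.8 elsewhere. NK cells were 1.17 above CD8 T cells (log2, SE 0.14, adjusted p = 0.000119). Without the floor, where the spread of the lowest signals enters the fit, the same difference for Gata3 was not called (adjusted p = 0.358), nor was that for Eomes (adjusted p = 0.0505). Against B cells, both were higher in NK cells also within the scan day that held 2 arrays of each, with B minus NK differences of -3.97 for Gata3 and -7.61 for Eomes (adjusted p = 0.00683 and 0.00493).

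Tbx21, Eomes and Gata3 were 3 of the 9 factors higher in NK cells than in CD8 T cells, against 21.5% of all genes, and Pou2af1, Lef1 and Ets1 were lower, against 16.6%. In CD8 T cells Tbx21 stood at 14.4% of its NK cell mean, Eomes at 21% and Gata3 at 44.3%. On the same arrays Klrd1 stood at 42.9%, Gzma at 8.79%, Fasl at 3.18%, Ncr1 at 0.534% and Klra8 at 0.161%. The part of other cells in these levels was not tested. Of 11 tested genes that T-box factors are known to activate, 10 were higher in NK cells, with a median log2 difference of 3.00, against 0.05 for all genes. Fasl (5.02), which encodes a death ligand, Zeb2 (4.50), a transcriptional repressor, Ifng (4.36), which encodes interferon gamma, and Gzmb (3.72), which encodes granzyme B, had larger differences than Nkg7 (1.36). In the opposite direction, all 12 tested T cell identity genes were lower in NK cells (median -4.03), among them Cd3e (-4.68), which encodes a T cell receptor subunit, and Bcl11b (-4.44), which keeps T cell commitment. These 12 include the T cell markers Cd3d, Cd3e, Cd3g, Cd5, Cd6 and Trat1, and the T-box list includes the NK cell marker Fasl. The NK cells were also sorted as TCRβ-. Both counts therefore describe the cells and do not test the factors.

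Lef1, an HMG-box factor of the Wnt pathway, had signals of 34.0, 99.3 and 119 in B cells, the lowest in replicate 1, and of 188 and 196 in NK cells. It was highest in CD8 T cells, with 1495 and 1386, and gave at most 11.8 in DCs. NK cells were 2.91 below CD8 T cells (log2, SE 0.45, adjusted p = 0.000582). The other probe set gave a difference of -1.53 (adjusted p = 0.0103).

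NK cells were 1.38 above B cells for Lef1 (adjusted p = 0.0201), which was not called without either NK cell array (adjusted p = 0.0986 and 0.104) nor within the shared scan day (B minus NK -1.72, adjusted p = 0.185). B cells were 1.88 above pDCs for Lef1 (adjusted p = 0.00372), but by 0.52 on the other probe set, where the call was lost (adjusted p = 0.363). The call was also lost with a floor of 50 (0.75, adjusted p = 0.0707). The Lef1 mean of NK cells was 13.3% of that of CD8 T cells, where Cd3d stood at 4.63%, Cd8b1 at 0.332% and Cd8a at 0.169%. Of 8 T cell markers, 2 had a mean signal of at least 50 in NK cells, and Trat1 stood at 9.28% of its CD8 T cell mean.

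Ets1, an Ets-family factor of resting lymphocytes, had signals of 1289, 1888 and 1924 in B cells, 702 and 801 in NK cells, 4022 and 3838 on the CD8 T cell arrays and 288 and 482 in pDCs. In CD8α cDCs it gave 3.73 and 1.52, and in CD11b cDCs 25.4 and 2.22. Each step down to CD11b cDCs was called, with CD8 T cells 1.23 above B cells (adjusted p = 0.00286), B cells 1.16 above NK cells (0.00341), NK cells 1.01 above pDCs (0.0109) and pDCs 4.05 above CD11b cDCs (7.9e-07). Without the floor the steps from CD8 T to B cells, B to NK cells and NK cells to pDCs were not called (adjusted p = 0.213, 0.23 and 0.327 from limma). The difference of B cells to NK and CD8 T cells together was -0.04 (95% confidence interval -0.49 to 0.42), and Ets1 was the only factor not called in that comparison. Within the scan day shared by B and NK cells, B minus NK was 1.06 for Ets1 and 1.98 for Bach2, neither of them called (adjusted p = 0.104 and 0.0968).

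The probe sets of Ets1 disagreed on NK and CD8 T cells. The one used (1452163_at) gave -2.39 for NK minus CD8 T cells and 1426725_s_at gave -1.83 (adjusted p = 0.000109 and 0.000609 in the fit over 15650 probe sets), whereas 1422028_a_at gave 1.28 (adjusted p = 0.0144). On this probe set NK cells had 459 and 419 and CD8 T cells 222 and 148, with no overlap and in the opposite order to the other probe sets. The remaining one (1422027_a_at) gave -0.59 (adjusted p = 0.253). The NK cell arrays were also those with the high GAPDH 3′ to 5′ ratio, and the part of that ratio in the disagreement was not tested. With the mean over its probe sets, Ets1 in CD8 T cells was no longer called above B cells (0.49, adjusted p = 0.0662), nor were B cells above NK cells (0.39, adjusted p = 0.121). That second step was also lost with the second probe set (0.68, adjusted p = 0.0772) and with a term for the set of sample names (0.78, adjusted p = 0.0527).

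**Figure D2:**
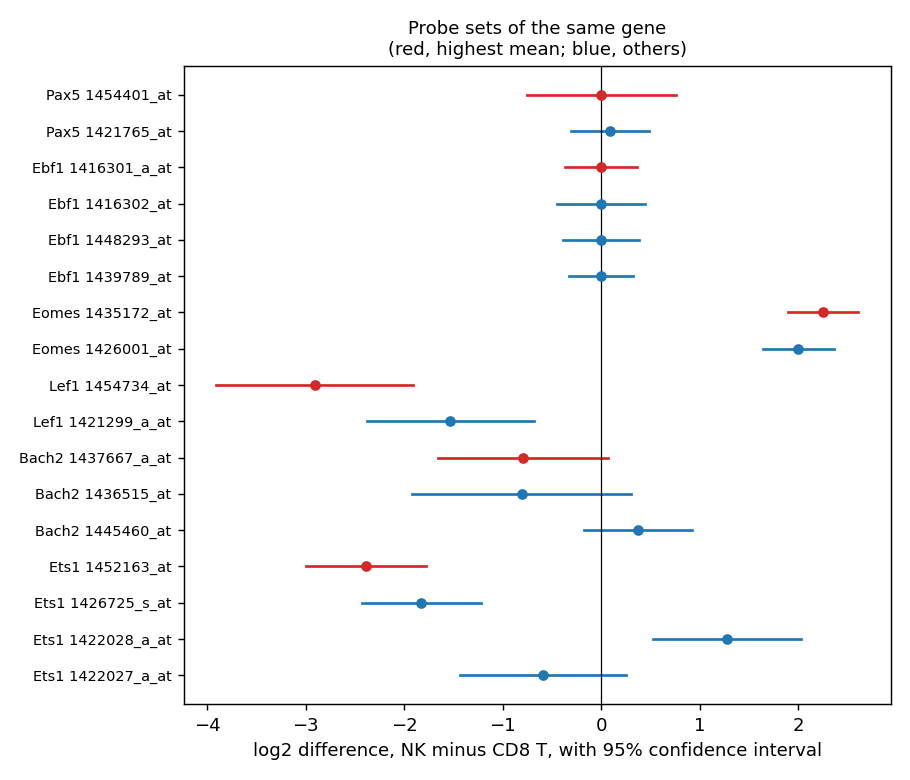
Log2 difference of NK to CD8 T cells (horizontal axis, with 95% confidence interval) for each tested probe set of the factors with more than 1, the probe set used in red and the others in blue. The probe sets of Eomes and of Lef1 lie on the same side of 0, while 1422028_a_at of Ets1 lies at 1.28 and the probe set used at -2.39.

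Bach2, a repressor of effector and plasma cell differentiation, had signals of 1201, 2536 and 3167 in B cells, 411 and 479 in NK cells and 775.5 and 765 in CD8 T cells. In pDCs it gave 173 and 135, in CD8α cDCs 18.8 and 21.9 and in CD11b cDCs 27.4 and 41.8. B cells did not overlap any other population, and replicate 1 was the lowest of the 3.

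B cells were 1.86 above NK and CD8 T cells together for Bach2 (log2, SE 0.29, adjusted p = 0.000492), and 1.47 above CD8 T cells alone (adjusted p = 0.00791). The call against CD8 T cells was lost without either CD8 T cell array (adjusted p = 0.0578 and 0.0554). NK minus CD8 T cells was -0.80 (95% confidence interval -1.64 to 0.05, adjusted p = 0.129), and without B cell replicate 1 the same difference was called (adjusted p = 0.0149). The second probe set (1436515_at) showed the same order of the B cell arrays, with 785, 2195 and 2801. On it B cells were not called above CD8 T cells (1.42, adjusted p = 0.0826), nor NK cells above pDCs (1.31, adjusted p = 0.118).

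Among 7 tested genes of naive lymphocytes, the state that Bach2, Lef1 and Tcf7 are known to maintain, all 7 were higher in lymphocytes than in DCs (median 1.90, against 0.02 for all genes, of which 32.3% were higher). Of these, 4 were lower in NK than in CD8 T cells, as were 16.6% of all genes: Ccr7 (-5.96), a lymph node homing receptor, Il7r (-3.13), the interleukin-7 receptor, S1pr1 (-3.12), an egress receptor, and Satb1 (-1.17), a chromatin organiser. Ccr7 was higher in B cells than in NK and CD8 T cells (3.51) and Il7r lower (-4.74). Single populations went against the averages of lymphocytes and DCs. Il7r had a mean signal of 2567 in pDCs, against 59.0 in B cells and 532 in NK cells. Ccr7 had a mean of 379 in CD8α cDCs, against 15.4 in NK cells.

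Set together, all 9 factors were higher in the average of the lymphocyte populations than in that of the DC populations. The log2 differences ran from 1.11 for Pax5 to 4.95 for Ets1, while 32.3% of all genes were higher and 31.3% lower. Only Lef1, Bach2 and Ets1 were called higher in each lymphocyte population than in each DC population. Tbx21 gave -3.26 for B cells minus CD11b cDCs. Pax5 and Ebf1 were below the floor in NK cells, CD8 T cells and DCs, and Eomes and Gata3 in B cells and DCs. B cells differed from NK and CD8 T cells in 8 of 9, with 4 higher and 4 lower (Tbx21 -5.39, Eomes -6.48, Gata3 -3.39 and Lef1 -2.83), beside 17.7% and 20.1% of all genes. Over the 15 pairs of populations, 88 of 135 tests of the factors were called (65.2%), against 41.4% over all genes. Without the 3 arrays whose sex-linked transcripts opposed the label, all 9 remained higher in the average of B and NK cells than in that of DCs. All 9 were also called between B and NK cells. CD8 T cells were not part of that check. By the same transcripts the B and NK cell arrays left in it were male and the DC arrays female. Sex can therefore not be told apart from population in its comparison with DCs.

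**Figure D3:**
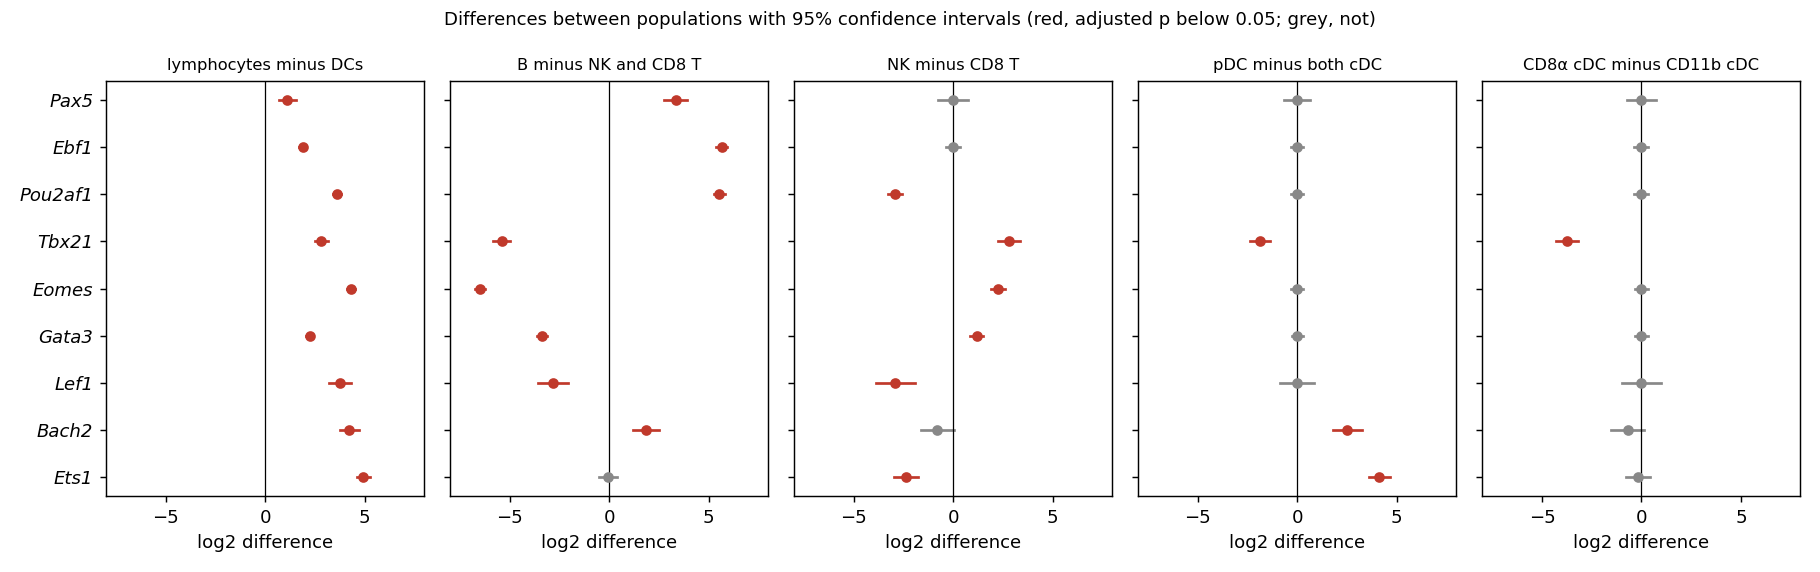
Log2 difference of each factor in 5 comparisons (horizontal axes), with 95% confidence intervals, red where the adjusted p was below 0.05. All 9 lie above 0 for lymphocytes minus DCs, and a value of exactly 0 in the other panels marks factors at or below the floor of 20 in both groups. Ets1 for B minus NK and CD8 T lies close to 0, at -0.04, with all its signals there above the floor.

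Among DCs, 3 of 9 factors were called between pDCs and the average of the 2 cDC subsets. Ets1 (log2 difference 4.13, SE 0.23, adjusted p = 1.83e-07) and Bach2 (2.52, SE 0.33, adjusted p = 0.000129) were higher in pDCs, as were 17.7% of all genes, and Tbx21 was lower (-1.87, adjusted p = 4.97e-05), as were 19.1%. For Tbx21 this difference came from CD11b cDCs alone (-3.75 for pDCs minus CD11b cDCs), as pDCs and CD8α cDCs were both below the floor. The other 6 factors were below the floor on all 6 DC arrays. Within the scan day that held both pDC arrays and 3 of the 4 cDC arrays, the differences were 4.22 for Ets1, 2.37 for Bach2 and -1.86 for Tbx21 (adjusted p = 0.00754, 0.00715 and 0.00322).

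The pDC mean was 22.6% of the B cell mean for Ets1 and 6.68% for Bach2. Ebf1 stood at 0.693% and Pou2af1 at 0.0717% on the same arrays, and the B cell markers Cd79a, Ms4a1, Cr2 and Fcer2a at 0.186 to 0.517%. Cd79b was the exception among the B cell markers, at 4.69%. Against CD8 T cells the pDC mean of Ets1 was 9.80%, where Bach2 stood at 20% and Lef1 at 0.418%. The T cell markers ran from 0.0376% for Cd3d to 2.89% for Cd5, except Cd8a at 36.4% and Cd8b1 at 43.1%.

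Ets1 was higher in pDCs than in cDCs on 3 of its 4 probe sets by call (1.41 to 4.13), and 1422027_a_at gave 0.93 (adjusted p = 0.0534). Bach2 was higher on 2 of 3, while 1445460_at, whose highest signal on any array was 139, gave 0.30 (adjusted p = 0.31). For Bach2, pDCs were above CD11b cDCs by 2.17 (adjusted p = 0.00126). NK cells were above pDCs by 1.54 (adjusted p = 0.00748), but not by call without pDC replicate 2 (adjusted p = 0.0659) or NK cell replicate 2 (adjusted p = 0.0557). For Ets1 the step from NK cells to pDCs was likewise lost without pDC replicate 1 (adjusted p = 0.0997) or NK cell replicate 2 (adjusted p = 0.0668).

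Of the 15 tested targets of the B cell factors, 5 were higher in pDCs than in cDCs and 3 lower, beside 17.7% and 19.1% of all genes. The higher ones were Blnk (6.19), a B cell receptor adaptor, Spib (4.61), a factor also known from pDCs, Fcrla (3.09), Cd79b (2.34) and Cd72 (2.20). Cd22 (-3.54), Ms4a1 (-3.39) and Bank1 (-2.90) were lower in pDCs. Pax5 and Ebf1 themselves were at most 8.63 in pDCs. Of the genes repressed by Pax5 in B cells, 4 of 8 were higher in pDCs (17.7% of all genes), with Notch1 (4.21) and Ccr2 (3.04) the most.

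Between the cDC subsets only Tbx21 was called, with a log2 difference of CD8α to CD11b cDCs of -3.75 (SE 0.25, adjusted p = 1.56e-06), where 10.6% of all genes were lower and 8.96% higher. The signals were 2.76 and 11.4 in CD8α cDCs against 273 and 264 in CD11b cDCs. Within 1 scan day, with 1 of the CD11b cDC arrays, the difference was -3.72 (adjusted p = 0.00768). Bach2 gave -0.69 (adjusted p = 0.256), with 18.8 and 21.9 in CD8α cDCs against 27.4 and 41.8 in CD11b cDCs. Leaving out B cell replicate 1, which is in neither group but shares the estimate of the spread, made Bach2 a second called factor (adjusted p = 0.045).

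The Tbx21 mean of CD11b cDCs was 8.60% of that of NK cells. On the same arrays Eomes stood at 0.129% and Gata3 at 0.342%, and the NK cell markers Ncr1 at 0.649%, Gzma at 0.179% and Klra8 at 0.0648%. Klrd1 (25.9%), which encodes CD94, and Fasl (4.70%) stood higher, and these 2 of the 5 measured NK cell markers had a mean signal of at least 50 in CD11b cDCs, while Gzma gave 64.7 and 1.82 on the arrays. The summed signal of 7 macrophage and monocyte markers was 6501 to 7745 in CD11b cDCs, against 1411 to 1523 in CD8α cDCs. In CD11b cDCs Csf1r (3187 and 3473), Lyz2 (1757 and 2500) and Adgre1 (1300 and 1505) had the highest signals of these. On the same arrays C1qb gave 136.1 and 110.5, C1qa 63.0 and 58.3, Cd14 54.1 and 83.7 and Cd5l 4.88 and 15.8. The part of macrophages and monocytes in the Tbx21 level was not tested.

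**Figure D4:**
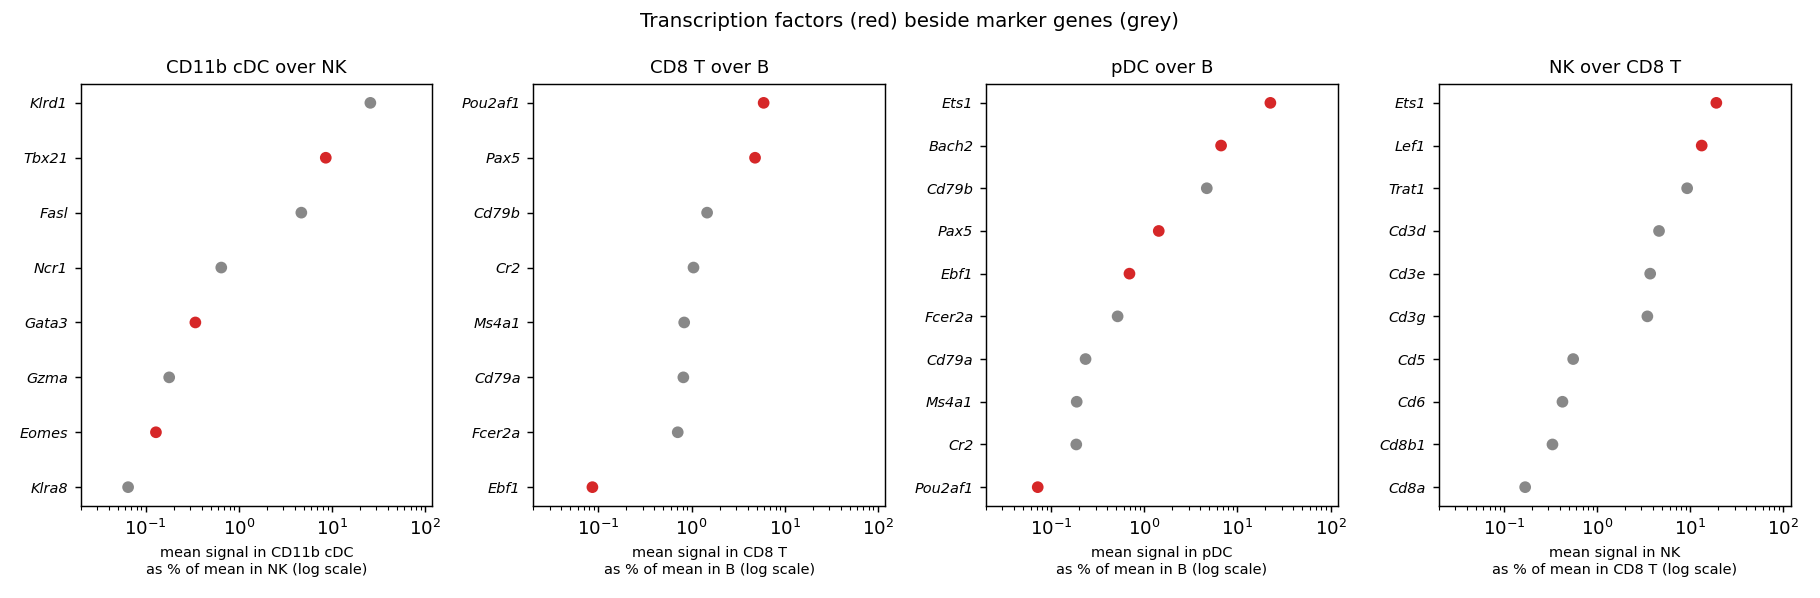
Mean signal of a population as a percentage of the mean in a second population (log axis), for the factors in red and marker genes in grey. In CD11b cDCs Tbx21 lies at 8.60% of its NK cell level with Eomes at 0.129%, and in pDCs Ets1 lies at 22.6% of its B cell level with Ebf1 at 0.693%.

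Over the 13 arrays, Eomes and Gata3 followed each other with a Pearson correlation of 0.999, and Pax5 and Ebf1 with 0.984. Bach2 and Ets1 correlated at 0.932, both being above the floor in all lymphocytes and in pDCs. Tbx21 correlated with Eomes at 0.879, the CD11b cDC arrays being high in Tbx21 alone. Outside the factors, the tested gene nearest to Pou2af1 was Cxcr5 (0.996), the receptor that guides B cells to follicles. The nearest to Eomes was Gprin3 (0.999), to Ebf1 4930426D05Rik (0.998), to Tbx21 Rab37 (0.981), to Lef1 Rnf125 (0.973), to Bach2 Klhl12 (0.978), to Ets1 AI504432 (0.989) and to Pax5 Dusp4 (0.990). These correlations describe 13 arrays in 6 groups that share the floor.

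Related factors were mostly below the filter: of 13 paralogs with a probe set, 4 were tested. Ets2 (log2 difference 3.11) and Fli1 (1.93), of the Ets family, were higher in lymphocytes than in DCs, whereas Tcf7l2 (-2.30), of the family of Lef1, and Bach1 (-0.85), of that of Bach2, were lower. Of 12 tested binding partners and corepressors, 5 were higher in lymphocytes and 3 lower, near the 32.3% and 31.3% of all genes, with a median of 0.07 against 0.02 for all genes.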

How the data were processed

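Signals of 13 whole-genome Affymetrix mouse arrays were analysed. The deposited intensity values are MAS5 signals that the authors obtained from RNA amplified in successive rounds, 1 per probe set, scaled to a target intensity of 100. They are linear and have no floor. Deposited text records of the arrays (kind of value: other) gave scan day, chip lot and RNA amount only. The annotation gave 1 gene for 34958 of 45101 probe sets (34754 matched by ID), several for 932 and none for 9211. One probe set per gene was kept, by highest mean. Signals were floored at 20, log2 transformed and fitted with limma 3.58.1 (R 4.3.3), for genes reaching 50 on every array of some population, and the script was tested on simulated data. Depth has no meaning for arrays.

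The members and the gene lists were chosen with earlier results of these data known. The genes named are the members, for each of them the nearest genes by Pearson correlation, the list members with the largest differences among those called, and the markers. Alternatives changed the normalization, the floor, the filter, the probe set, the variance model, the replicate number, scan day or sample-name set as a term, and left out each array in turn. After the data were seen, fits within a scan day, over all probe sets and without the arrays of opposing sex were added. Same-numbered arrays deviated with correlations of -0.199 to 0.184, so replicate numbers were not taken as pairs.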

Additional observations from a re-analysis of the deposited data

How the results depend on the processing

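No called difference of a factor in the 5 comparisons changed direction under the alternatives with 1 value per gene. Differences that were not called, such as that of Ets1 for B minus NK and CD8 T (-0.04), are not covered by this. Of single probe sets, 1422028_a_at of Ets1 was opposite to the probe set used for NK minus CD8 T (1.28 against -2.39, both called). Bach2 1445460_at gave 0.37 there against -0.80, and Ets1 1422027_a_at gave 0.48 against -0.04 for B minus NK and CD8 T, none of these 4 values being called. The count of factors called stayed within 1.5 times for each comparison and alternative except CD8α minus CD11b cDCs, where it was 2 instead of 1 with a term for the set of sample names, and 1 to 2 when 1 array was left out (2 without B cell replicate 1). The added factor was Bach2 in both cases. With the replicate number as a block, no call of a factor changed, with 9 factors called for lymphocytes minus DCs, 8 for B minus NK and CD8 T, 6 for NK minus CD8 T, 3 for pDC minus both cDC and 1 for CD8α minus CD11b. With the term for sample names, Pax5 was called 1.05 higher in NK than in CD8 T cells (adjusted p = 0.0325 from limma). All 4 Pax5 signals of these cells lay below the floor. Without a floor 6 of the 9 factors, with the second or the mean probe set 8, and without either CD8 T cell array 8 were higher in 1 population than in each other. Of all genes, 1195 were called for CD8α minus CD11b cDCs with the second probe set, 1101 without CD8α cDC replicate 2, 1117 and 1147 without CD11b cDC replicates 1 and 2, against 1830. For NK minus CD8 T cells 2365 were called without CD8 T cell replicate 1, against 3578. The cause of these changes was not tested. The floor limits all low values: 49.1 to 58.3% of an array's signals were under 20.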
